A study of Rattus norvegicus with 144 samples.

Results

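The genes described here are 8 members of Toll-like receptor signalling and of the NF-kappaB pathway that it feeds, followed in rat blood after acetaminophen: the receptors and co-receptor Tlr2, Tlr4 and Cd14, the adaptor Myd88, the inhibitor Nfkbia, the subunits Nfkb1 and Rela, and the co-regulator Bcl3. They were taken as the probes annotated to these symbols. Of the 8 genes 7 had a probe, with 9 probes in all, among 9653 named genes with a probe on the arrays. Tlr4 was not analysed here. After a filter on missing values 6 of the genes were tested among 14678 features (8354 named genes and 6324 unnamed probes), and the 2 probes of Bcl3 are given singly as well as averaged. Myd88 did not pass that filter, with a value in 33 of 72 animals.

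Male F344/N rats of 10 to 12 weeks received acetaminophen (APAP), an analgesic that injures the liver at high dose, by gavage in an ethyl cellulose vehicle. The 12 groups of 6 animals were vehicle alone (0 mg/kg), 150, 1500 and 2000 mg/kg, each at 3, 6 and 24 h, with every amount split over 2 gavages, and all animals were of 1 strain. RNA of blood, which mixes all circulating cells, was set on 2-colour arrays of oligonucleotide probes against a pool of RNA from 6 vehicle animals of the same time, and each animal had 2 arrays of opposite dye. Dose came from the study's deposited key for what was a blinded test set, and time came from the labels. Of the 72 animals 19 matched the key only when zeros at the ends of their numbers were ignored, and all 72 times in the key matched the labels. A value is the log2 ratio of an animal over its vehicle pool, averaged over its 2 arrays, so 0 is the pool and 1 is double the pool.

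Toll-like receptors sense microbial products and molecules released by damaged tissue. Through adaptors such as Myd88 and the IkappaB kinases they lead to the breakdown of IkappaB proteins, of which Nfkbia is the best known, and this frees NF-kappaB dimers to enter the nucleus. NF-kappaB then induces inflammatory genes and also its own inhibitors, Nfkbia among them. In blood these receptors are carried mainly by neutrophils and monocytes.

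Each comparison below is a difference of group means from 1 limma fit over all 72 animals, with the standard error (SE) in parentheses, and a gene is said to have risen or fallen where its Benjamini-Hochberg adjusted p over all 14678 features was under 0.05. No source used here gives the log base, the centring or the direction of the deposited ratios. They were taken as log10 of Cy5 over Cy3, which is likely, and with the other direction every sign below would turn. Exact zeros made up 10.92% of the values and were treated as missing. After an animal's 2 arrays were turned the same way they correlated above 0 in 57 animals and at or below 0 in 15, with a median r of 0.22. The lowest r between arrays of the same dye and time was -0.28. A ratio carries no level, so the genes below cannot be ranked by how much RNA blood held.

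The promoters of the 3 members that moved are shown first, because each holds a match to the kappaB consensus, the 10-base pattern bound by NF-kappaB. The windows are the 250 bases before the gene's start in the RefSeq annotation of the rat build GRCr8, written 5′ to 3′ on the gene's strand, and capitals mark matches on either strand. They lie at chr2:171504558-171504807 for Tlr2, chr6:78597073-78597322 for Nfkbia and chr1:88613556-88613805 for Bcl3, all on the minus strand.
Tlr2: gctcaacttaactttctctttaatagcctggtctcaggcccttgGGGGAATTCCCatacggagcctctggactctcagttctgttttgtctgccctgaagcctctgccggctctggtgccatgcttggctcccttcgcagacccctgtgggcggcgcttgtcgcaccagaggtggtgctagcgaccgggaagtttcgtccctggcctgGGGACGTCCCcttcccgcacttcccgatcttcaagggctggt
Nfkbia: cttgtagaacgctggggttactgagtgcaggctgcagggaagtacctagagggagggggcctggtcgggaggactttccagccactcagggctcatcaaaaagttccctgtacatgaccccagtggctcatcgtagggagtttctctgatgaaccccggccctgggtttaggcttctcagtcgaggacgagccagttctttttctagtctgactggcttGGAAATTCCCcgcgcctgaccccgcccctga
Bcl3: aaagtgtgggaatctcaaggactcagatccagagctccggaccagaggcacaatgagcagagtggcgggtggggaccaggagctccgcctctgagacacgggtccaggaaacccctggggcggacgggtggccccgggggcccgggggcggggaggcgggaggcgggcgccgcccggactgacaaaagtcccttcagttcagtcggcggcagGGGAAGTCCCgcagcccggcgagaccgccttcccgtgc
In Tlr2 the first capitals hold 2 overlapping matches, GGGGAATTCC and GGGAATTCCC, that begin 206 and 205 bases before the start, and the second run, GGGACGTCCC, begins 42 bases before it. Nfkbia holds GGAAATTCCC, a match on the opposite strand, 31 bases before its start, and Bcl3 holds GGGAAGTCCC 38 bases before its start, a match on both strands. Of the other members Nfkb1 held a match only 4 bases past its start, and Tlr4, Cd14, Myd88 and Rela held none in the window of 300 bases. Among all 33469 RefSeq windows of 300 bases 2515 (7.51%) held the consensus, and 2117 (6.33%) held it in the 250 bases before the start. A match is a description of the letters and was not tested as a site of binding.

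Tlr2, the receptor for bacterial lipoproteins, was higher in blood 24 h after 1500 and 2000 mg/kg. At 24 h the lowest, median and highest Tlr2 log2 ratios were -0.81, -0.23 and 0.78 in vehicle animals, -0.72, -0.44 and 0.64 at 150 mg/kg, -0.03, 1.12 and 1.83 at 1500 mg/kg, and 0.10, 0.58 and 1.58 at 2000 mg/kg. Every animal of both high doses lay above the vehicle mean, but only 4 of 6 at 1500 mg/kg and 2 of 6 at 2000 mg/kg lay above the highest vehicle animal, so the groups overlapped. Tlr2 rose by 1.19 (SE 0.26) at 1500 mg/kg, a 2.29-fold difference with a limma adjusted p of 0.00533. At 2000 mg/kg it rose by 0.99 (0.26), or 1.98-fold, with a limma adjusted p of 0.0487. In bulk blood fewer cells of a type and less RNA per cell cannot be told apart, and the same holds for more. A list of 9 tested neutrophil markers had 4 higher members at 1500 mg/kg and 3 at 2000 mg/kg at this time, and the mean ratio over the list ranged from 0.17 to 1.77 at 1500 mg/kg and from 0.37 to 1.48 at 2000 mg/kg, against -0.23 to 0.37 in vehicle animals. Of 13 tested monocyte markers 3 were higher at 1500 mg/kg and 2 at 2000 mg/kg, with list means from -0.14 to 0.35 and from -0.15 to 0.26 in these groups, against -0.28 to 0.25 in vehicle animals. Beside these counts, 0.845% of all features were higher at 1500 mg/kg and 0.491% at 2000 mg/kg. The part of either list in the Tlr2 result was not tested.

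At the earlier times Tlr2 did not pass the test. At 3 h its lowest, median and highest log2 ratios were -0.67, -0.06 and 0.55 in vehicle animals, -0.84, -0.32 and 0.46 at 150 mg/kg, -0.76, -0.58 and 0.28 at 1500 mg/kg, and -1.04, -0.76 and -0.22 at 2000 mg/kg. The medians went down with dose, and 5 of 6 animals at 2000 mg/kg lay below the lowest vehicle animal. The difference from vehicle was -0.66 (0.26) at 2000 mg/kg with a limma adjusted p of 0.113 and a 95% interval from -1.19 to -0.13, and it was -0.30 (0.26) at 1500 mg/kg with an adjusted p of 0.732. The 2000 mg/kg difference at 3 h passed in 3 other fits, with adjusted p values of 0.00131 against the pool itself, 0.00383 with arrayWeights and 0.00967 with single arrays. The fit against the pool leaves out the vehicle animals, whose own mean over the pool was -0.09. The fit of single arrays enters both arrays of an animal, with 1 correlation of 0.23 taken for all features, so it adds no animals. At 6 h the medians were -0.03, -0.03, 0.14 and 0.08 at 0, 150, 1500 and 2000 mg/kg, within a range over all animals of -0.38 to 0.94. The 6 h differences were 0.32 at 1500 mg/kg and 0.13 at 2000 mg/kg, with limma adjusted p values of 0.641 and 0.811.

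The 24 h rise of Tlr2 at 1500 mg/kg passed without any single animal, and was lost with arrayWeights (1.01, adjusted p 0.0919). The call at 2000 mg/kg was near the threshold and was lost without vehicle animals 2431, 2507, 3565, 5480 or 8002 and without 2000 mg/kg animals 1987, 5402 or 5421, where limma adjusted p values ran from 0.0702 to 0.179. The differences without these animals ran from 0.83 to 1.02. It was also lost in 11 other settings, with adjusted p values from 0.0501 to 0.279.

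**Figure D1:**
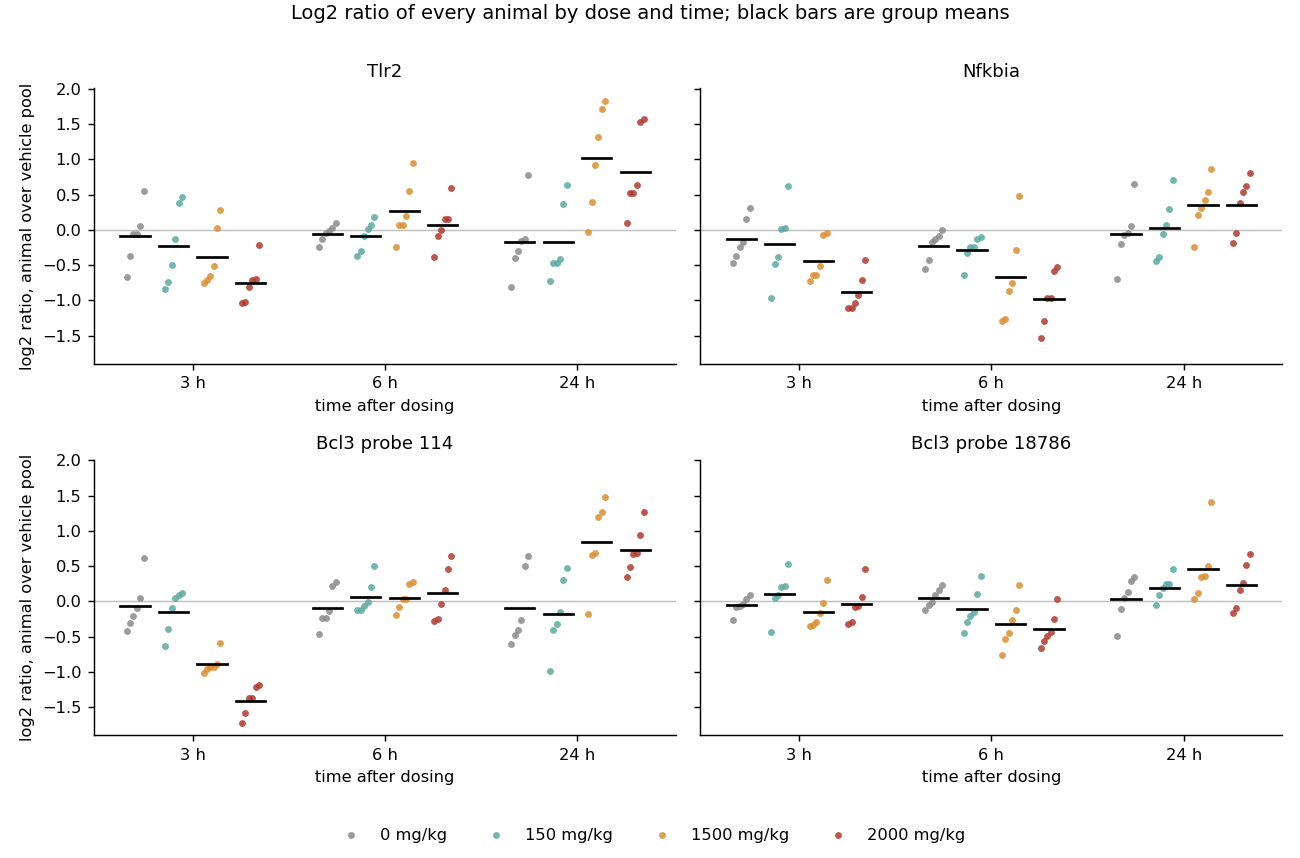
Log2 ratio over the vehicle pool (y axis) of every animal for Tlr2, Nfkbia and the 2 Bcl3 probes by time (x axis), with points coloured by dose from 0 to 2000 mg/kg and black bars at the group means. Bcl3 probe 114 at 3 h is the panel in which the 1500 and 2000 mg/kg animals (-1.72 to -0.59) lie apart from all vehicle animals (-0.42 to 0.61), while probe 18786 shows no such gap.

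Cd14, the co-receptor that hands lipopolysaccharide to Tlr4, did not pass in any comparison. Over the 12 groups its medians ran from -0.09 to 0.04, and its differences from vehicle ran from -0.03 to 0.09 over the 9 comparisons of a dose with vehicle. The widest of them, 0.09 (0.05) at 1500 mg/kg and 3 h, had a 95% interval from -0.01 to 0.20 and a limma adjusted p of 0.47. All 6 animals of that group lay above the vehicle mean and 2 of 6 above the highest vehicle animal, which was 0.14 in animal 3482 against -0.06 in the next. Ratios this close to the pool were seen in all 72 animals, from -0.14 to 0.25. Myd88, the adaptor of most Toll-like receptors, had a value in 1 to 5 animals of each group, and those 33 values ran from -0.43 to 1.25. It was not tested.

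Nfkbia, which encodes IkappaB-alpha and holds NF-kappaB in the cytoplasm, was lower at 3 and 6 h after 2000 mg/kg. At 3 h its lowest, median and highest log2 ratios were -0.48, -0.21 and 0.30 in vehicle animals, -0.96, -0.19 and 0.62 at 150 mg/kg, -0.72, -0.58 and -0.04 at 1500 mg/kg, and -1.11, -0.98 and -0.42 at 2000 mg/kg. At 6 h they were -0.55, -0.15 and 0.00 in vehicle animals, -0.64, -0.25 and -0.11 at 150 mg/kg, -1.29, -0.81 and 0.47 at 1500 mg/kg, and -1.53, -0.96 and -0.53 at 2000 mg/kg. At each of these times 5 of 6 animals at 2000 mg/kg lay below the lowest vehicle animal and 1 overlapped the vehicle range. Nfkbia fell by 0.75 (0.23) at 3 h and by 0.75 (0.23) at 6 h on the log2 scale, a 1.69-fold and a 1.68-fold difference, with limma adjusted p values of 0.0217 and 0.0229.

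The 1500 mg/kg group was lower on average at 3 and 6 h without passing, at -0.30 (0.23) and -0.44 (0.23), with limma adjusted p values of 0.653 and 0.365. At 6 h this group was the widest of all for Nfkbia, with animal 0621 at 0.47 above every vehicle animal and 4 of 6 animals below the lowest one. Without animal 0621 the 6 h difference of Nfkbia was -0.66 with a limma adjusted p of 0.0506, and without animal 4178 it was -0.31 with 0.645. Against the pool itself both passed, at -0.44 at 3 h and -0.66 at 6 h, with limma adjusted p values of 0.0476 and 0.00242. That fit leaves out the vehicle animals, whose own means over the pool were -0.13 at 3 h and -0.23 at 6 h. At 24 h the lowest, median and highest Nfkbia ratios were -0.70, -0.06 and 0.65 in vehicle animals, -0.44, 0.01 and 0.70 at 150 mg/kg, -0.24, 0.37 and 0.87 at 1500 mg/kg, and -0.19, 0.45 and 0.80 at 2000 mg/kg. The groups overlapped and neither high dose passed, with differences of 0.40 (0.23) each and limma adjusted p values of 0.632 at 1500 mg/kg and 0.585 at 2000 mg/kg.

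The 3 h call of Nfkbia was lost without vehicle animals 6370 or 8282 or 2000 mg/kg animals 2360 or 8511, with differences from -0.72 to -0.66 and limma adjusted p values from 0.0532 to 0.0711. The 6 h call was lost without vehicle animal 4101 (-0.71, 0.0531) or 2000 mg/kg animals 3763 (-0.64, 0.0781) or 8597 (-0.69, 0.0696), and when arrays were centred and scaled (-0.61, 0.0874). Beside these falls, 6 of 13 tested monocyte markers fell and 1 rose at 2000 mg/kg and 3 h, and 3 fell at 6 h. Of 9 neutrophil markers 2 fell at 3 h, and 1 rose and 1 fell at 6 h. At 2000 mg/kg 6 of 12 T cell markers and 4 of 6 B cell markers fell at each of the 2 times. Of all features at this dose 8.32% were lower and 0.913% higher at 3 h, and 8.26% lower and 0.961% higher at 6 h. The mean over the monocyte markers at 3 h ran from -0.73 to -0.35 at 2000 mg/kg against -0.28 to 0.11 in vehicle animals, and the part of these cells in the result was not tested.

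Nfkb1 and Rela, which encode 2 of the DNA-binding subunits of NF-kappaB, did not pass in any comparison. The 2 Nfkb1 probes averaged to group medians between -0.05 and 0.12, and the differences from vehicle ran from -0.07 to 0.10. The largest, 0.10 (0.06) at 2000 mg/kg and 3 h, had a limma adjusted p of 0.366, with all 6 animals above the vehicle mean and 3 above the highest vehicle animal. Over 72 animals probe 222 and probe 2550 had r = -0.55, a description over animals that share pools and array designs. Alone, probe 222 had group medians from -0.15 to 0.03 and probe 2550 from -0.15 to 0.36, so the average was flatter than probe 2550. At 2000 mg/kg and 3 h probe 2550 was 0.25 (0.14) above vehicle while probe 222 was at -0.05 (0.08), with limma adjusted p values of 0.318 and 0.768.

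Rela, the subunit that carries a transactivation domain, had a value in 63 of 72 animals and in at least 4 per group, and each fit used the animals with a value. At 24 h its lowest, median and highest log2 ratios were -0.31, 0.12 and 0.33 in 5 vehicle animals, -0.20, 0.04 and 1.11 in 5 animals at 150 mg/kg, 0.13, 0.24 and 0.39 in 6 animals at 1500 mg/kg, and -0.02, 0.29 and 1.15 in 5 animals at 2000 mg/kg. The groups overlapped. The difference at 2000 mg/kg was 0.48 (0.21) with a limma adjusted p of 0.399 and a 95% interval from 0.06 to 0.90. At 3 h after 150 mg/kg 5 of 6 animals lay above the highest vehicle animal, with a difference of 0.35 (0.19) and a limma adjusted p of 0.9975.

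**Figure D2:**
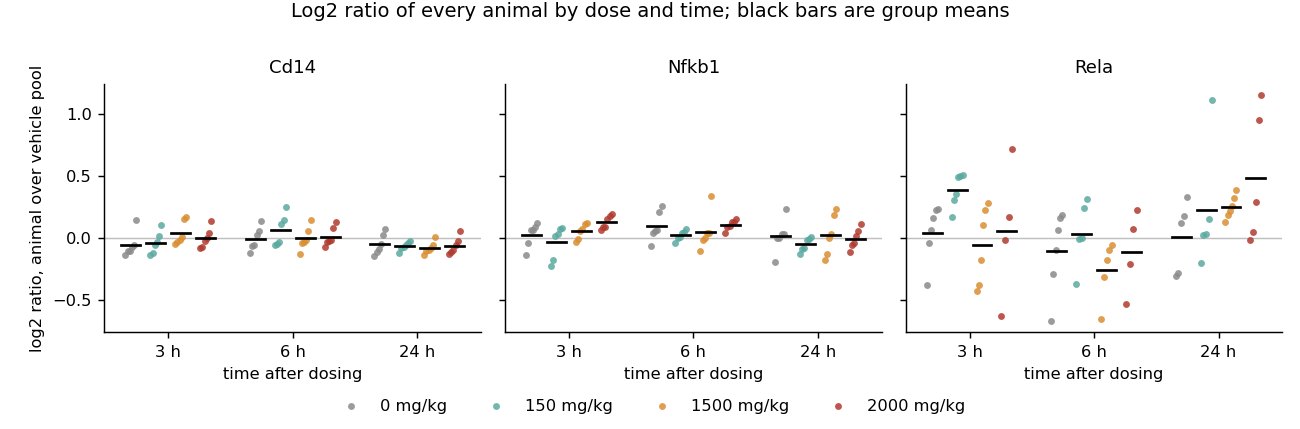
Log2 ratio over the vehicle pool (y axis) of every animal with a value for Cd14, Nfkb1 and Rela by time (x axis), coloured by dose from 0 to 2000 mg/kg, with black bars at the group means. Cd14 and averaged Nfkb1 stay close to 0 in all 12 groups, and Rela spreads from -0.67 to 1.15 with overlapping groups. Nfkb1 is drawn as the mean of 2 probes that had r = -0.55 with each other.

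Bcl3, an atypical nuclear IkappaB protein that binds NF-kappaB dimers on DNA, fell at 3 h and rose at 24 h, and of its 2 probes 1, probe 114, passed the test. Probe 114 at 3 h had lowest, median and highest log2 ratios of -0.42, -0.15 and 0.61 in vehicle animals, -0.63, -0.03 and 0.11 at 150 mg/kg, -1.02, -0.93 and -0.59 at 1500 mg/kg, and -1.72, -1.37 and -1.18 at 2000 mg/kg. All 12 animals of the high doses lay below every vehicle animal, and the 2000 mg/kg animals also lay below every animal at 1500 mg/kg. The share of all probes with groups apart in this way was not counted, so these gaps are a description only. In the fit of all 16923 probes singly, probe 114 fell by 0.82 (0.21) at 1500 mg/kg, or 1.77-fold, with a limma adjusted p of 0.0327. It fell by 1.345 (0.21) at 2000 mg/kg, or 2.54-fold, with a limma adjusted p of 1.17e-05. The difference between the high doses themselves was -0.52 (0.21) with a limma adjusted p of 1.0, so it did not pass. At 3 h 3 of 6 B cell markers fell at 1500 mg/kg and 4 of 6 at 2000 mg/kg, and their mean ran from -1.14 to -0.72 and from -1.445 to -0.89 in these groups against -0.36 to 0.30 in vehicle animals. As well, 6 of 12 T cell, 6 of 13 monocyte and 2 of 9 neutrophil markers fell at 2000 mg/kg, and 0, 1 and 0 at 1500 mg/kg. Of all features 8.32% were lower at 2000 mg/kg and 1.24% at 1500 mg/kg. The T cell mean ran from -0.68 to -0.40 at 1500 mg/kg and from -1.06 to -0.45 at 2000 mg/kg, against -0.23 to 0.03 in vehicle animals, so neither dose overlapped vehicle. The part of these cells in the Bcl3 result was not tested.

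By 24 h probe 114 stood above vehicle. Its lowest, median and highest log2 ratios were -0.60, -0.33 and 0.65 in vehicle animals, -0.99, -0.24 and 0.47 at 150 mg/kg, -0.18, 0.94 and 1.48 at 1500 mg/kg, and 0.34, 0.68 and 1.27 at 2000 mg/kg. Of the 6 animals 5 at 1500 mg/kg and 4 at 2000 mg/kg lay above the highest vehicle animal, so the groups overlapped. The neutrophil and monocyte markers given beside Tlr2 are from the same groups, and their part here was not tested. Probe 114 rose by 0.94 (0.21) at 1500 mg/kg and by 0.83 (0.21) at 2000 mg/kg, or 1.93-fold and 1.77-fold, with limma adjusted p values of 0.00598 and 0.0346. At 6 h the probe was near vehicle, with medians of -0.18, -0.03, 0.03 and 0.06 at 0, 150, 1500 and 2000 mg/kg. Its 6 h differences were 0.15 at 1500 mg/kg and 0.21 at 2000 mg/kg, with limma adjusted p values of 0.836 and 0.591.

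Probe 18786 of the same gene did not pass in any comparison. At 3 h its medians were -0.05, 0.14, -0.23 and -0.07 at 0, 150, 1500 and 2000 mg/kg, and the difference from vehicle was -0.09 (0.17) at 1500 mg/kg and 0.01 (0.17) at 2000 mg/kg. The 95% interval at 2000 mg/kg, from -0.32 to 0.35, did not reach the 3 h fall of probe 114. At 6 h its medians were 0.04, -0.18, -0.36 and -0.46 at the same doses, with 5 of 6 animals at 2000 mg/kg below the lowest vehicle animal, a difference of -0.44 (0.17) and a limma adjusted p of 0.0829. This one passed without 2000 mg/kg animal 3763 (-0.53, adjusted p 0.0434), against the pool itself (0.00648) and with arrayWeights (0.00115). The fit against the pool leaves out the vehicle animals, whose own mean was 0.05. At 24 h the difference was 0.43 (0.17) at 1500 mg/kg and 0.19 (0.17) at 2000 mg/kg, with limma adjusted p values of 0.308 and 0.785. The part of the transcript each probe matches is not given in the sources used here, and the difference between the probes was not tested.

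Averaged over both probes, Bcl3 fell by 0.46 (0.11) at 1500 mg/kg and by 0.67 (0.11) at 2000 mg/kg at 3 h, with limma adjusted p values of 0.0294 and 4.65e-05, and neither group overlapped vehicle. At 24 h it rose by 0.69 (0.11) and 0.51 (0.11) at these doses, with limma adjusted p values of 0.000149 and 0.0109. The 1500 mg/kg animals ran from 0.50 to 0.85 at 24 h and did not overlap the vehicle animals, which ran from -0.35 to 0.39. This gap rests on the averaging: animal 3046 was the lowest of its group on probe 114 (-0.18) and the highest on probe 18786 (1.40), and its mean was 0.61. Of the 2000 mg/kg animals 4 of 6 lay above the highest vehicle animal. The share of all features with groups that do not overlap was not counted. At 6 h the averaged differences were -0.11 (0.11) at each high dose, with limma adjusted p values of 0.737 and 0.586.

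The 3 h calls at 1500 mg/kg were lost, for the average and for probe 114, without vehicle animals 6370, 8282 or 8691 or 1500 mg/kg animals 1286, 4258, 5027 or 6622. The differences were then -0.50 to -0.38 for the average (limma adjusted p 0.062 to 0.16) and -0.83 to -0.69 for probe 114 (0.0559 to 0.172). The 3 h calls at 2000 mg/kg passed without any single animal. At 24 h and 2000 mg/kg the average lost its call without vehicle animal 3565 (0.44, 0.054), and probe 114 lost it without vehicle animals 2431, 2507, 3565 or 8002 or 2000 mg/kg animals 1987 or 5402 (0.72 to 0.80, limma adjusted p 0.073 to 0.132). At 1500 mg/kg probe 114 lost its 24 h call without animal 0861 (0.82, 0.0515). It also lost that call on Cy5 arrays only (limma adjusted p 0.0666) and with arrayWeights (0.088), while the average kept it in 14 other settings. At 24 h and 2000 mg/kg the average lost its call on Cy5 arrays (0.112), on Cy3 arrays (0.0695) and with arrayWeights (0.101). Probe 114 lost that one in 5 settings (0.0697 to 0.232). The 3 h calls at 1500 mg/kg were lost on either dye alone (0.0621 to 0.213).

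**Figure D3:**
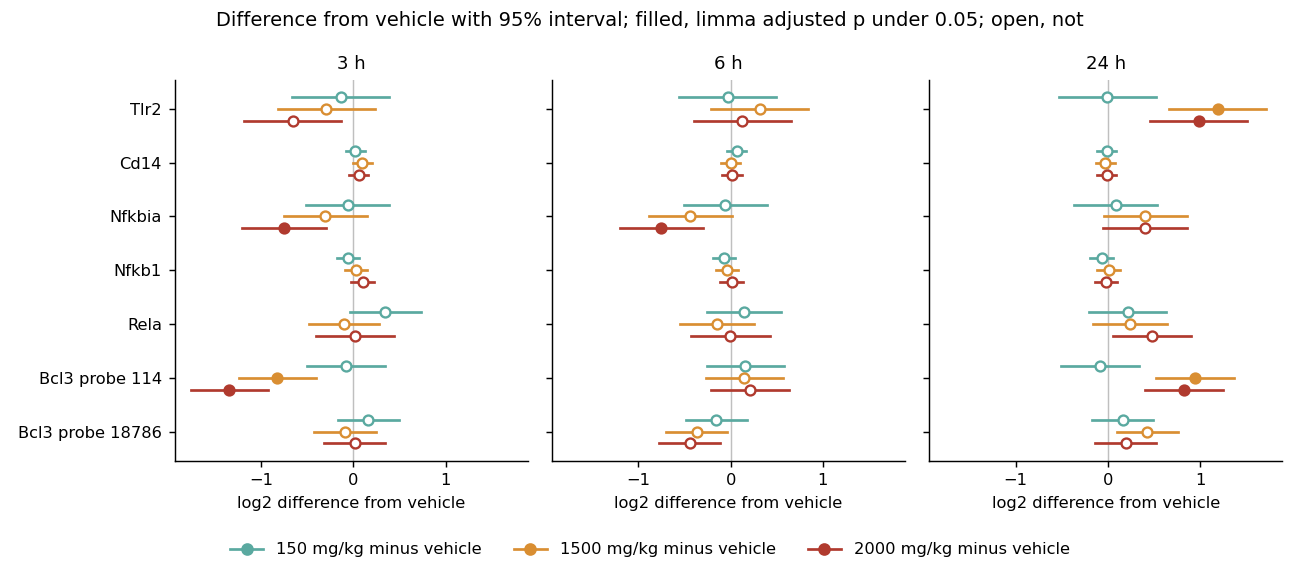
Difference from vehicle of the same time (x axis, log2) with its 95% interval at 3, 6 and 24 h, for 150, 1500 and 2000 mg/kg. The y axis holds Tlr2, Cd14, Nfkbia, Nfkb1, Rela and each Bcl3 probe, and averaged Bcl3 is not drawn. Points are filled where the limma adjusted p was under 0.05. Filled points lie left of 0 at 3 h for Nfkbia and Bcl3 probe 114 and at 6 h for Nfkbia, and right of 0 at 24 h for Tlr2 and probe 114.

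Counted over the 6 tested members, 0 were higher and 1 lower at 1500 mg/kg and 3 h, where 0.0545% of all 14678 features were higher and 1.24% lower. At 2000 mg/kg and 3 h 0 were higher and 2 lower (all features 0.913% and 8.32%). At 6 h 0 moved at 1500 mg/kg (0.0954% higher and 0.654% lower) and 1 was lower at 2000 mg/kg (0.961% higher and 8.26% lower). At 24 h 2 were higher and 0 lower at each high dose, Tlr2 and Bcl3, where 0.845% of features were higher and 0.368% lower at 1500 mg/kg and 0.491% and 0.327% at 2000 mg/kg. The median difference over the 6 members was 0.32 at 1500 mg/kg and 0.44 at 2000 mg/kg at 24 h, with -0.01 and 0.00 over all features. At 3 h the members' median was -0.20 at 1500 mg/kg and -0.32 at 2000 mg/kg, with 0.01 and 0.03 over all features, and at 6 h it was -0.08 and 0.00, with 0.00 and 0.02 over all features. For the Bcl3 calls by single probe, the share of the 16923 probes called in that direction was 1.25% and 8.15% lower at 3 h and 0.75% and 0.443% higher at 24 h, at 1500 and 2000 mg/kg.

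At 150 mg/kg no member passed at any time, and 0.0% of all features were called there, with 616, 693 and 399 features at an unadjusted p under 0.05 at 3, 6 and 24 h. The members' differences from vehicle at this dose ran from -0.14 for Tlr2 at 3 h to 0.35 for Rela at 3 h. No member and 0.0% of features passed between 2000 and 1500 mg/kg either, where 549, 677 and 506 features had an unadjusted p under 0.05 at the 3 times. The members' largest differences between these doses were at 3 h, -0.45 (0.23) for Nfkbia and -0.36 (0.26) for Tlr2, each with a limma adjusted p of 1.0. Their 95% intervals, from -0.90 to 0.00 and from -0.89 to 0.16, leave room for a difference of the size seen against vehicle.

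The difference between times was tested in the same fit, as the change from vehicle at the later time minus that at the earlier one. From 3 to 24 h the change of Tlr2 rose by 1.49 (0.37) at 1500 mg/kg and by 1.65 (0.37) at 2000 mg/kg, with limma adjusted p values of 0.0178 and 0.00439. That of averaged Bcl3 rose by 1.145 (0.16) and 1.175 (0.16), with limma adjusted p values of 2.13e-05 and 1.7e-06, and probe 114 alone rose by 1.77 (0.30) and 2.17 (0.30), a 3.41-fold and a 4.51-fold shift, with 0.000209 and 1.95e-06. That of Nfkbia rose by 1.15 (0.32) at 2000 mg/kg (0.0285) and stood at 0.71 (0.32) at 1500 mg/kg (0.43). These counts, 2 of 6 members higher at 1500 mg/kg and 3 of 6 at 2000 mg/kg, stood where 1.13% of features were higher and 0.382% lower at 1500 mg/kg and 2.34% and 0.388% at 2000 mg/kg. By single probe 1.12% and 2.36% were higher. The comparisons share the vehicle animals of each time and the 24 h groups.

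From 6 to 24 h the change of Nfkbia rose by 1.15 (0.32) at 2000 mg/kg with a limma adjusted p of 0.0247, and that of averaged Bcl3 rose by 0.80 (0.16) at 1500 mg/kg and 0.62 (0.16) at 2000 mg/kg, with 0.00937 and 0.0146. Neither Bcl3 probe passed here alone: probe 114 stood at 0.80 (0.30) and 0.61 (0.30) and probe 18786 at 0.80 (0.23) and 0.63 (0.23), with limma adjusted p values from 0.121 to 0.323. Tlr2 stood at 0.88 (0.37) and 0.86 (0.37), with limma adjusted p values of 0.394 and 0.203. Of all features 0.177% were higher and 0.0477% lower at 1500 mg/kg, and 3.0% and 0.661% at 2000 mg/kg. From 3 to 6 h no member passed. There 0.0% of features were called at 1500 mg/kg, with 565 at an unadjusted p under 0.05, and 0.00681% were higher at 2000 mg/kg, with 626 at an unadjusted p under 0.05. Tested singly, the change of probe 114 rose by 1.56 (0.30) from 3 to 6 h at 2000 mg/kg, with a limma adjusted p of 0.0289, one of 0.0118% of probes called higher.

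Several of these shifts lost their call when 1 animal was left out. The Tlr2 shift at 1500 mg/kg from 3 to 24 h was lost without vehicle animal 6370 (1.36, 0.0564) or 1500 mg/kg animals 0861 (1.33, 0.0573) or 8385 (1.35, 0.0507). That shift was also lost on Cy3 arrays (1.33, limma adjusted p 0.0885) and with arrayWeights (1.22, 0.0576). The Nfkbia shift from 3 to 24 h was lost without vehicle animals 6370, 8282, 3565 or 8002 or 2000 mg/kg animals 2360, 8511, 2342 or 9999 (1.025 to 1.12, limma adjusted p 0.0505 to 0.0761), and its shift from 6 to 24 h without vehicle animal 3565 or 2000 mg/kg animals 3763, 2342 or 9999 (1.02 to 1.10, 0.057 to 0.0649). The shift of probe 114 from 3 to 6 h was lost without vehicle animals 6370, 8282, 8691, 4101, 6034 or 9709 or 2000 mg/kg animals 2360, 8511, 8846, 8066 or 9434 (1.42 to 1.565, 0.0537 to 0.148). Probe 18786 passed from 6 to 24 h at 1500 mg/kg without 1500 mg/kg animal 0621 (0.91, 0.0435). The Bcl3 shifts from 3 to 24 h, averaged and by probe 114, and the averaged shifts from 6 to 24 h passed without any single animal.

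Some arrays lacked 500 features that others held, and animals of the 3 and 6 h groups were spread over both layouts. At 24 h all vehicle, 150 and 1500 mg/kg animals and 5 of 6 at 2000 mg/kg had both arrays of the design without these features. At 3 h and 2000 mg/kg 4 animals had both arrays of the fuller design and 2 had both of the other, against 2 and 2 vehicle animals. Within the fuller design at 3 h and 2000 mg/kg the differences were -0.43 for averaged Bcl3, -1.08 for probe 114 and -0.48 for Nfkbia, with limma adjusted p values of 0.313, 0.0947 and 0.717. Within the other design they were -0.87, -1.52 and -1.05, with limma adjusted p values of 0.0196, 0.0481 and 0.109. The sign was the same in both designs, with 2 to 4 animals a group. At 1500 mg/kg and 3 h the fuller design gave -0.35 for averaged Bcl3 and -0.59 for probe 114, with limma adjusted p values of 0.9998 and 0.9999. In the design without the features Tlr2 at 24 h stood at 1.19 at 1500 mg/kg and 0.84 at 2000 mg/kg (limma adjusted p 0.0162 and 0.212). Nfkbia at 6 h stood there at -1.02 at 1500 mg/kg and -0.81 at 2000 mg/kg (0.0342 and 0.0132). At 6 h that design held both arrays of only 2 animals at 1500 mg/kg, and of 5 at 2000 mg/kg and 5 vehicle animals. In the design without the features the Tlr2 shift from 3 to 24 h at 2000 mg/kg was 1.71, with a limma adjusted p of 0.111. The same shift there was 1.53 for Nfkbia, 1.355 for averaged Bcl3 and 2.24 for probe 114 (limma adjusted p 0.0373, 0.00125 and 0.0101).

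Across the 72 animals Tlr2 and Bcl3 probe 114 varied together, with r = 0.85 over all animals and 0.78 after each group's mean was taken off. With probe 18786 the values for Tlr2 were 0.10 and -0.24, and the 2 Bcl3 probes had 0.11 and -0.29 with each other. Nfkbia had r = 0.56 with Tlr2 and 0.57 with probe 114, or 0.51 and 0.49 within groups. These are descriptions over 72 animals that share vehicle pools, array designs and cell mix, with no test. The same animals stood at the ends of several genes: at 24 h vehicle animal 7067 was the highest of its group in Tlr2 (0.78), probe 114 (0.65) and Nfkbia (0.65), and vehicle animal 3565 the lowest in all 3 (-0.81, -0.60 and -0.70). At 1500 mg/kg and 24 h animal 3046 was the lowest in the same 3 (-0.03, -0.18 and -0.24), and animal 0861 the highest in Tlr2 (1.83) and probe 114 (1.48).

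**Figure D4:**
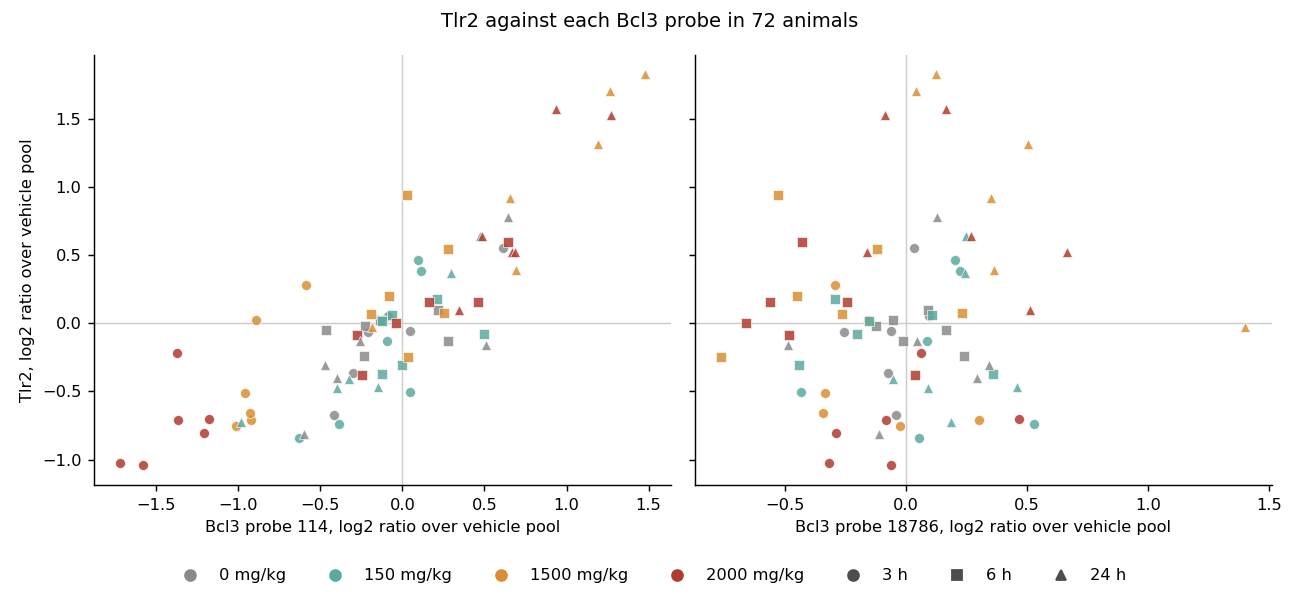
Tlr2 log2 ratio (y axis) against that of Bcl3 probe 114 (left, x axis) and probe 18786 (right, x axis) in 72 animals, with colour for dose and shape for time. The points follow a line on the left (r = 0.85) and form no line on the right (r = 0.10).

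The named genes whose ratios ran most like those of a member over the animals were Tf, Slpi and Anxa1 for Tlr2, with r = 0.93, 0.93 and 0.92 over 72 animals. For averaged Bcl3 they were Fcgr2b, Exo5 and Fcgr1a, with 0.89, 0.88 and 0.88, and for Nfkbia Lgals3, Fuca1 and Aldoa, with 0.86, 0.85 and 0.85. Within groups the values for these genes were 0.87 to 0.89 with Tlr2, 0.58 to 0.63 with Bcl3 and 0.76 to 0.78 with Nfkbia. Over the 12 group means they were 0.96 to 0.97 with Tlr2, 0.96 to 0.98 with Bcl3 and 0.91 to 0.94 with Nfkbia. For the members that did not pass the highest were lower, at 0.81 for Cd14 with Mvk, 0.72 for Nfkb1 with Ucp1 and 0.53 for Rela with Begain over 63 animals. The genes were picked as the highest of all named genes, so their r is a description with no test.

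Of 89 other genes of the pathway in 4 lists 51 were tested. Among 10 receptors, co-receptors and adaptors Ly86, the partner of the receptor homologue Cd180, fell by 0.64 (0.15) at 3 h and by 0.53 (0.15) at 6 h after 2000 mg/kg, with limma adjusted p values of 0.0026 and 0.0161. Lbp, which carries lipopolysaccharide to Cd14, rose by 0.60 (0.14) at 24 h after 1500 mg/kg (0.00916). Cd36, a scavenger receptor that assists Tlr2, fell by 1.08 (0.15) at 1500 mg/kg and by 1.01 (0.15) at 2000 mg/kg at 24 h (7.87e-06 and 5.51e-05), the opposite direction to Tlr2 in the same groups. Beside these counts of 0 or 1 of 10 genes in each direction, 8.32% of all features were lower at 3 h and 8.26% at 6 h after 2000 mg/kg, and 0.368% and 0.327% were lower and 0.845% and 0.491% higher at 24 h after 1500 and 2000 mg/kg. The other receptors and adaptors tested, among them Tlr3, Tlr8 and Cd180, passed at no dose and time against vehicle. The Lbp call was lost without 1500 mg/kg animals 0861 (0.46, 0.112), 6173 (0.52, 0.0561) or 8385 (0.54, 0.052). Lbp was also lost on Cy5 arrays (limma adjusted p 0.0585), in the design without the 500 features (0.057) and with arrayWeights (0.102). The 3 h call of Ly86 was lost within each array design, at -0.34 in the fuller one (limma adjusted p 0.484) and -0.91 in the other (0.072).

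Of 14 kinases and ubiquitin enzymes 2 passed, both at 3 h after 2000 mg/kg. Chuk, an IkappaB kinase, rose by 0.26 (0.07) with a limma adjusted p of 0.0125, and Ube2n, a ubiquitin-conjugating enzyme that acts with Traf6, fell by 0.37 (0.11) with 0.0293. These are 1 of 14 genes in each direction, where 0.913% of all features were higher and 8.32% lower, so the count of lower genes was near the background. The Chuk call was lost without vehicle animal 5554 (0.22, 0.0509) or 2000 mg/kg animal 8511 (0.22, 0.0635), and stood at 0.09 (0.726) on arrays with the animal in Cy5. The Ube2n call was lost without vehicle animals 6370, 7558 or 8282 or 2000 mg/kg animals 2360, 8511 or 8846 (-0.36 to -0.325, limma adjusted p 0.0582 to 0.0871). It was also lost on Cy5 arrays (limma adjusted p 0.0794) and on Cy3 arrays (0.179). Within each array design both Chuk and Ube2n lost their calls (limma adjusted p 0.138 to 0.484). Of 4 further subunits and inhibitors, Nfkb2, Nfkbib, Nfkbie and Nfkbiz, none passed against vehicle in the limma fit.

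Of 23 tested NF-kappaB targets Bcl2a1, Cd83, Il1b, Il12b and Nos2 passed against vehicle. Bcl2a1, which protects leukocytes from cell death, fell by 0.97 (0.23) and 1.76 (0.23) at 3 h after 1500 and 2000 mg/kg (limma adjusted p 0.0241 and 6.85e-07), and by 0.94 (0.23) and 1.45 (0.23) at 6 h (0.0455 and 0.000141). Cd83, a surface marker of activated antigen-presenting cells, fell by 0.51 (0.10) and 0.72 (0.10) at 3 h (0.00672 and 2.33e-06) and by 0.55 (0.10) at 6 h after 2000 mg/kg (0.000662). Il1b, the inflammatory cytokine interleukin 1 beta, fell by 1.37 (0.25) at 3 h after 2000 mg/kg (0.000127) and rose by 0.95 (0.25) and 1.10 (0.25) at 24 h after 1500 and 2000 mg/kg (0.0353 and 0.0119). At 6 h after 2000 mg/kg Il12b, a subunit of interleukin 12, rose by 0.42 (0.13) and Nos2, the inducible nitric oxide synthase, fell by 0.29 (0.09), with limma adjusted p values of 0.0211 and 0.0318. The counts of target genes were 0 higher and 2 lower at 1500 mg/kg and 0 and 3 at 2000 mg/kg at 3 h, 0 and 1 and then 1 and 3 at 6 h, and 1 and 0 at each high dose at 24 h. Of all features 1.24% and 8.32% were lower at 3 h and 0.654% and 8.26% at 6 h, and 0.845% and 0.491% were higher at 24 h, at 1500 and 2000 mg/kg. The list's median difference stayed between -0.04 and 0.10 in these 6 comparisons. Other targets with large means at 24 h did not pass, such as the chemokine Ccl2 at 1.67 (0.48) after 2000 mg/kg (0.0856) and the mitochondrial dismutase Sod2 at 0.76 (0.22) after 1500 mg/kg (0.0625); these 2 were picked after their values were seen.

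Some calls of these targets were lost when 1 animal was left out. That of Bcl2a1 at 1500 mg/kg and 3 h was lost without vehicle animals 6370, 8282 or 8691 or 1500 mg/kg animals 1286 or 4258 (-0.98 to -0.84, limma adjusted p 0.0541 to 0.137). Its 6 h call at that dose was near the threshold (0.0455) and was lost in 11 of 12 such fits. These were the fits without vehicle animals 3273, 4101, 6034, 6749, 7270 or 9709 or 1500 mg/kg animals 0089, 0426, 2789, 4178 or 9676 (-0.999 to -0.82, 0.0535 to 0.183). That 6 h call was also lost in 4 other settings (limma adjusted p 0.0551 to 0.0808). The Il1b rise at 1500 mg/kg was lost without vehicle animals 2431, 2507, 3565 or 8002 or 1500 mg/kg animals 0184, 0861, 2486 or 6173 (0.83 to 0.98, 0.0694 to 0.106). This rise was also lost with scaling (limma adjusted p 0.106), on Cy5 arrays (0.0608) and with arrayWeights (0.147). Il12b lost its call without vehicle animal 6749 (0.38, 0.0624) or 2000 mg/kg animal 3763 (0.34, 0.0871), and Nos2 without vehicle animals 3273, 4101, 6034 or 7270 or 2000 mg/kg animals 8066, 8597, 8960 or 9434 (-0.29 to -0.27, 0.0547 to 0.0925). On Cy5 arrays Il12b stood at 0.28 (limma adjusted p 0.339), and with scaling at 0.32 (0.161). Nos2 was also lost with scaling, on Cy5 arrays and in the design without the 500 features (limma adjusted p 0.058 to 0.0812). The calls of Cd83 and of Bcl2a1 at 2000 mg/kg, and of Il1b at 2000 mg/kg, at 3, 6 and 24 h against vehicle passed without any single animal. Within the fuller array design, with 4 animals at 2000 mg/kg and 2 vehicle animals, the 3 h calls at that dose were lost. The differences stood at -1.35 for Bcl2a1, -1.31 for Il1b and -0.58 for Cd83, with limma adjusted p values of 0.249, 0.231 and 0.231. At 1500 mg/kg and 3 h Bcl2a1 and Cd83 also lost their calls there, each with 0.9998.

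**Figure D5:**
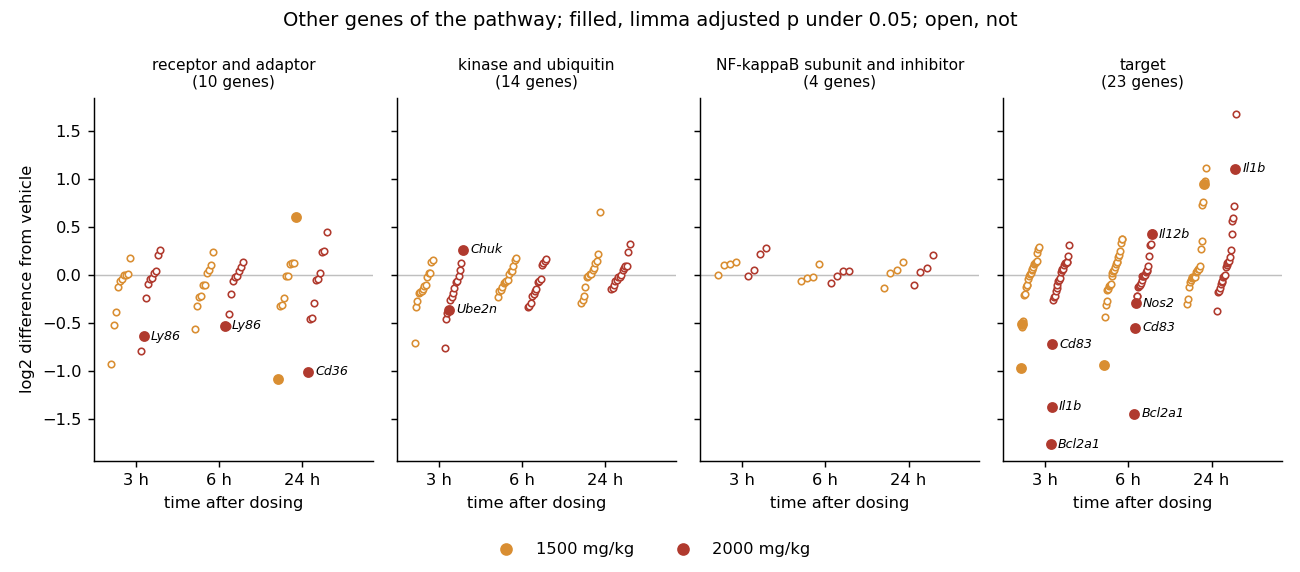
Difference from vehicle (y axis, log2) of every tested gene of the 4 pathway lists at 3, 6 and 24 h (x axis), orange for 1500 and red for 2000 mg/kg, with filled points where the limma adjusted p was under 0.05 and names given at 2000 mg/kg. Most points lie near 0, and the named targets Bcl2a1, Il1b and Cd83 lie below 0 at 3 h while Il1b lies above 0 at 24 h.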

How the data were processed

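Per the labels' protocols, each animal's blood RNA and a vehicle pool of its time were labelled with Cy5 and Cy3 on 2 arrays with the dyes exchanged. The authors deposited 1 log ratio per probe and array, taken here as a log10 ratio, which is likely but not stated. The software and filters behind them were not given in the sources used here. On that reading ratios were multiplied by 3.322 to give log2, on which every fold rests, and the sign was turned where the animal was in Cy3. Exact zeros were set to missing, 2 arrays were required per animal, and probes of 1 symbol were averaged. Features with fewer than 4 animals in any group were dropped. Of 22075 probes 500 were absent on 91 arrays and left out. Of the 22075 probes 12750 had 1 gene symbol, 5 had several and 9320 had none, and 12720 matched the RefSeq gene table.

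Group means of 72 animals were fitted with limma 3.58.1 in R 4.3.3, with Benjamini-Hochberg adjustment and a two-sided threshold of 0.05. The code was tested on simulated data. The depth of a ratio is unknown. Precision is limited by the 6 animals per group, since the 2 arrays of an animal were averaged. Animals were separate rats, and replicate numbers are animal numbers. Named genes were the members and up to 4 genes per pathway list, direction and comparison past the threshold, largest difference first. For likeness, the 3 named genes with the highest Pearson r over the animals were taken. The members, the pathway lists and the marker lists were chosen with earlier results of these data known. The marker lists covered neutrophils, monocytes, T cells, B cells, NK cells, platelets, erythroid cells and hepatocytes. Of 8 NK markers 1 fell and of 5 platelet markers 1 rose at 2000 mg/kg and 3 h, where 8.32% of all features were lower and 0.913% higher. None of 10 erythroid and 5 hepatocyte markers passed against vehicle in the limma fit. Alternatives covered zeros, centring, scaling, single dyes, filters, array design, fit options and leaving out each animal.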

Additional observations from a re-analysis of the deposited data

Results flagged for a closer look

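Single animals stood apart in 6 of 120 groups by Dixon's test, which chance alone gives in about 5% of groups. They were the vehicle animal 3482 for Cd14 at 3 h (0.144), animal 0572 for Rela at 150 mg/kg and 24 h (1.11), and animal 8030 for Bcl3 probe 114 at 1500 mg/kg and 3 h (-0.586). The others were animal 4178 for Nfkb1 probe 222 at 1500 mg/kg and 6 h (0.152), animal 9676 for averaged Nfkb1 in that group (0.344), and animal 3046 for Bcl3 probe 18786 at 1500 mg/kg and 24 h (1.40).

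The change from vehicle differed between times by the limma test of that difference. For the members these differences from 3 to 24 h, at 1500 and then 2000 mg/kg, were 1.49 and 1.65 for Tlr2, 1.145 and 1.175 for averaged Bcl3 and 1.77 and 2.17 for Bcl3 probe 114, and 1.15 for Nfkbia at 2000 mg/kg. From 6 to 24 h they were 0.80 and 0.62 for averaged Bcl3 and 1.15 for Nfkbia at 2000 mg/kg, and from 3 to 6 h 1.56 for probe 114 at 2000 mg/kg.

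Of the other pathway genes Lbp differed between 3 and 24 h by 0.73 at 1500 mg/kg, Cd36 by -1.25 and -0.97 at 1500 and 2000 mg/kg, Bcl2a1 by 1.695 and 2.36, Il1b by 1.495 and 2.475, and Cd83 by 0.69 at 2000 mg/kg. Between 6 and 24 h the differences were 1.66 and 2.04 for Bcl2a1 at 1500 and 2000 mg/kg, and at 2000 mg/kg -0.995 for Cd36, 1.185 for Il1b and 0.52 for Cd83. Those of Lbp, Il1b from 6 to 24 h and Cd83 from 6 to 24 h lost their call when 1 animal was left out. With all animals their limma adjusted p values were 0.0352, 0.0456 and 0.023. Lbp lost its call without vehicle animals 6370, 8282, 8691, 2431, 3565 or 5480 or 1500 mg/kg animals 1286, 4258, 6622, 0861, 6173 or 8385 (0.59 to 0.74, limma adjusted p 0.0501 to 0.107). Il1b lost it without vehicle animals 3273, 6034, 6749, 7270, 9709, 2431, 2507, 3565 or 8002 or 2000 mg/kg animals 3763, 8597, 8960, 9434, 2342, 5421, 7404 or 9999 (1.055 to 1.23, 0.0507 to 0.0957). Cd83 lost it without vehicle animal 3565 or 2000 mg/kg animals 9434, 2342 or 9999 (0.46 to 0.49, 0.052 to 0.0696).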

How the results depend on the processing

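No paired analysis was possible because the replicate numbers are unique animal numbers. Of 748 refits of called values under other settings 660 kept their direction and call, 88 lost the call and 0 turned sign. Leaving out 1 animal kept 807 of 948 calls and lost 141. The cause was not tested. At 1500 mg/kg and 3 h 1 member was called, against 0 on Cy5 arrays only, on Cy3 arrays only and in the fuller design, and 2 with the pool as control. At 2000 mg/kg and 3 h 2 were called, against 1 in the reduced design, 0 in the fuller one and 4 with the pool as control. At 6 h and 1500 mg/kg 0 were called, against 1 in the reduced design, which held 2 animals of that group, and 1 with the pool. At 6 h and 2000 mg/kg 1 was called, against 0 with scaling and 2 with the pool. At 24 h and 1500 mg/kg 2 were called, against 1 with arrayWeights. At 2000 mg/kg 2 were called, against 0 on Cy5 arrays, on Cy3 arrays and with arrayWeights, and 1 with zeros kept, centring, scaling, 2 of 6 animals, 1 array enough, the design as covariate, the reduced design, robust eBayes and probes tested singly. From 3 to 24 h at 1500 mg/kg 2 were called, against 1 on Cy3 arrays and 1 with arrayWeights. From 6 to 24 h at 1500 mg/kg 1 was called, against 0 with scaling, each dye alone and single probes, and 2 in the reduced design and with single arrays; at 2000 mg/kg 2, against 1 with scaling, 1 on Cy5 arrays, 0 on Cy3 arrays and 1 by probe. From 3 to 6 h at 2000 mg/kg 0 were called, against 1 by probe. The Bcl3 probes had 7 calls, against 3 on Cy5 arrays, 4 on Cy3 arrays, 3 in the reduced design and 0 in the fuller one. Without 1 animal at a time the counts ran from 0 to 1 at 1500 mg/kg and 3 h, 1 to 2 at 2000 mg/kg and 3 h, 0 to 1 at 2000 mg/kg and 6 h, 2 to 2 at 1500 mg/kg and 24 h, 0 to 2 at 2000 mg/kg and 24 h, 1 to 2 and 2 to 3 from 3 to 24 h, 1 to 1 and 1 to 2 from 6 to 24 h, 0 to 0 elsewhere, and 5 to 8 for the Bcl3 probes. Among uncalled values 16 of 1594 refits passed under other settings, and 2 of 1896 did without 1 animal. With the pool as control Nfkb1 passed at 2000 mg/kg at 3 h (0.13, limma adjusted p 0.0199) and 6 h (0.11, 0.0478). Rela passed in that setting at 2000 mg/kg and 24 h (0.0266). The pool setting leaves out the vehicle animals, so an offset that they share with dosed animals stays in its values. For Nfkb1 the vehicle means over the pool were 0.03 at 3 h and 0.09 at 6 h. The 6 h difference of Nfkb1 from vehicle animals was 0.01 (limma adjusted p 0.931). The number of animals per group limits the precision, and weak signals cannot be told from background in a table of ratios.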
